A study of Mus musculus with 15 samples.

Results

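Hepatic allografts taken on postoperative day 8 (POD8) were compared with hepatic allografts taken on postoperative day 5 (POD5), to find which transcript groups moved between the time points of rejection and which stayed where they were. The comparison used 6 of the 15 arrays of the study, 3 at each time point, chosen by their labels. A further 3 arrays of control liver set the starting level, and the 6 cardiac arrays were not used. All mice were male. The donor was of the B10.BR strain (H-2k) and the recipient of the B10.D2 strain (H-2d), so every graft was mismatched at the major histocompatibility complex (MHC), and livers were placed orthotopically by the cuff technique. The control arrays are labelled as normal liver, while the study's results speak of isografts, so whether the control livers were transplanted is not settled. No agent was given to any group as far as the labels say, and the age of the animals is not given. Each array measured total RNA of whole liver in 1 colour (Cy3), so RNA of the donor's hepatocytes and of the recipient's infiltrating leukocytes was read together. Throughout, fewer cells of a type and less RNA per cell cannot be told apart.

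An allograft is attacked mainly by recipient T cells that recognise donor MHC molecules, divide, and differentiate into cytotoxic cells that carry granzymes and perforin. Their interferon gamma acts on hepatocytes, endothelium and macrophages, which then express guanylate-binding proteins, chemokines and both classes of MHC molecules. Liver grafts between many mouse strains outlive other organs placed across the same barrier, and hepatocytes under inflammation lower much of their metabolic transcription while raising acute phase proteins.

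Of 41174 probes, 25137 were tested because they were well above background on all 3 arrays of at least 1 time point and had a value to compare. Of these, 22853 were well above background on all 6 allografts. A RefSeq gene name was found for 13701 genes, each represented by its brightest tested probe. The liver identity of the samples was clear, since all 17 tested plasma protein genes were well above background on every array of every group. Among the controls the first array stood apart, with correlations over probes of 0.958 and 0.944 to the others against 0.977 between those. Before normalisation the controls were dimmer, with a 75th percentile signal of 92.1, 165 and 226 against 338 to 478 on the allografts. Of all probes, 52.5% to 57.0% were well above background on the controls and 58.2% to 66.3% on the allografts. The part of this in the comparisons with the controls was not tested. The third POD5 array stood apart from the other POD5 arrays, with a correlation of at most 0.968 against 0.992 between those. The third POD8 array lay closer to a POD5 array (0.991) than to the other POD8 arrays (0.988 and 0.989). For some lists the median is also given without the third POD5 array, the third POD8 array or both. No slide held both time points, so slide and time point cannot be told apart. Control replicates 1 and 2 shared a slide with POD8 replicates 1 and 2, and no control shared a slide with a POD5 array. Where POD8 lay nearer to the controls than POD5 did, slide and time point likewise cannot be told apart.

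Between POD5 and POD8 few transcripts passed the test. With limma and a Benjamini-Hochberg adjusted p under 0.05, 4 probes were called (0.0159% of those tested), all of them higher at POD8, and they stood for 3 named genes (0.0219%) and 1 unnamed probe. No probe was called lower. At an unadjusted p under 0.05 there were 980 higher (3.9%) and 1377 lower probes (5.48%). The median log2 difference over all tested probes was 0.02, and 14846 probes (59.1%) had a 95% confidence interval within a 2-fold change either way. By contrast, 1623 genes were above the controls at POD5 (11.8%) and 959 below (7%), and at POD8 the counts were 1399 (10.2%) and 665 (4.85%). Both of these comparisons use the same 3 control arrays. Their shares are the background for the counts of list members called against the controls below. The number called between POD5 and POD8 was not stable: it was 0 with normexp background correction, 14 without the first control array and 4696 with weights for array quality. Most of what follows is therefore a description of groups that did not pass the test between the time points. The sign of the median was the same in all 28 alternative settings of the processing for 25 of the 43 gene lists, and changed in at least 1 setting for the other 18. Genes are named by rule (the foremost genes in each direction and the first members of each list), and every other gene named was chosen after its values were seen.

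The 3 genes that rose were Calcb, Camp and Ngp. Calcb encodes the beta form of calcitonin gene-related peptide, a vasodilator neuropeptide. Its log2 signals were 1.06, 1.11 and 1.66 on the POD5 arrays and 5.68, 5.87 and 5.501 on the POD8 arrays, against 1.39, 1.28 and 1.15 in the controls. Calcb was not well above background on any control or POD5 array and was so on all POD8 arrays. The rise passed (limma, adjusted p = 0.000147). Set against a floor, the lowest signal well above background on each POD5 array, it was 6.85-fold. With normexp the log2 difference was 0.83. The unnamed probe had log2 signals of 5.96, 6.13 and 6.22 at POD5 and 7.77, 8.16 and 7.98 at POD8, a 3.65-fold rise (adjusted p = 0.0307) with no overlap.

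Camp, the cathelicidin peptide of neutrophil granules, and Ngp, neutrophilic granule protein, belong to the secondary granule genes that are transcribed while neutrophils mature. Camp had log2 signals of 0.97, 0.97 and 1.73 at POD5 and 8.21, 6.60 and 5.59 at POD8, with control values of 4.65, 4.97 and 3.85. It was not well above background on any POD5 array, and every POD8 array lay above every control. The rise passed (limma, adjusted p = 0.0376). It was 14.9-fold against the floor, and the log2 difference with normexp was 1.53. Ngp had log2 signals of 0.85, 1.02 and 0.85 at POD5 and 7.15, 5.34 and 4.85 at POD8. Its rise passed (limma, adjusted p = 0.0307) and was 7.34-fold against the floor, and the log2 difference with normexp was 1.07. Ngp was not well above background on any control or POD5 array and was so on all POD8 arrays. Camp was called lower than the controls at POD5 (limma, adjusted p = 0.00678) and higher at POD8 (adjusted p = 0.0345). Ngp was also called lower than the controls at POD5 (limma, adjusted p = 0.0133) and higher at POD8 (adjusted p = 0.00996). Neither group of Ngp's lower call was well above background, so that call compares dim signals. Camp was well above background on 2 control arrays and on no POD5 array. Between the time points Camp was called in 7 and Ngp in 8 of 27 settings, and Calcb in 23. All 3 genes, Calcb included, entered the test through POD8, where they were high. The setting restricted to probes well above background on all 6 allografts left them out, and its 1 call was the unnamed probe.

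Among the 12 tested neutrophil genes these 2 were the ones called, 11 had a positive difference, 6 were higher without overlap between the time points (9.96% of all named genes were), and the median difference was 0.81. Camp and Ngp, both among the 6, entered the test through POD8, where they were high. Of the 10 members well above background on all 6 allografts 0 were called, and their median was 0.69. Mpo, the myeloperoxidase of primary granules, had log2 signals of 4.93, 4.89 and 5.06 at POD5 and 9.17, 7.77 and 7.05 at POD8. Its groups did not overlap, and the difference of 3.04 ± 0.46 (SE, n = 3 against 3) did not pass (adjusted p = 0.143). Ltf, the granule iron-binding protein lactoferrin, did not overlap either, with 6.22, 6.53 and 6.47 at POD5 and 8.33, 8.83 and 6.87 at POD8. Ms4a3, a membrane protein of granulocyte precursors, was not well above background on any POD5 array and was so on all POD8 arrays, and did not pass (adjusted p = 0.119). S100a8, S100a9, Cxcr2 and Lcn2 of the same list differed less in value, a grouping made after the values were seen and not tested. S100a8, a calcium-binding alarmin subunit, had 8.23, 7.44 and 8.06 at POD5 and 9.68, 8.15 and 8.93 at POD8, and its partner S100a9 differed by 0.87. Both overlapped between the time points. Cxcr2, the chemokine receptor of circulating neutrophils, differed by 0.01, and Lcn2, a siderophore-binding protein that hepatocytes also make, by -0.26. The first POD8 array held the highest value of Camp, Ngp, Mpo, S100a8 and S100a9. The neutrophil median was 0.97 without the third POD5 array and 0.84 without the third POD8 array.

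**Figure D1:**
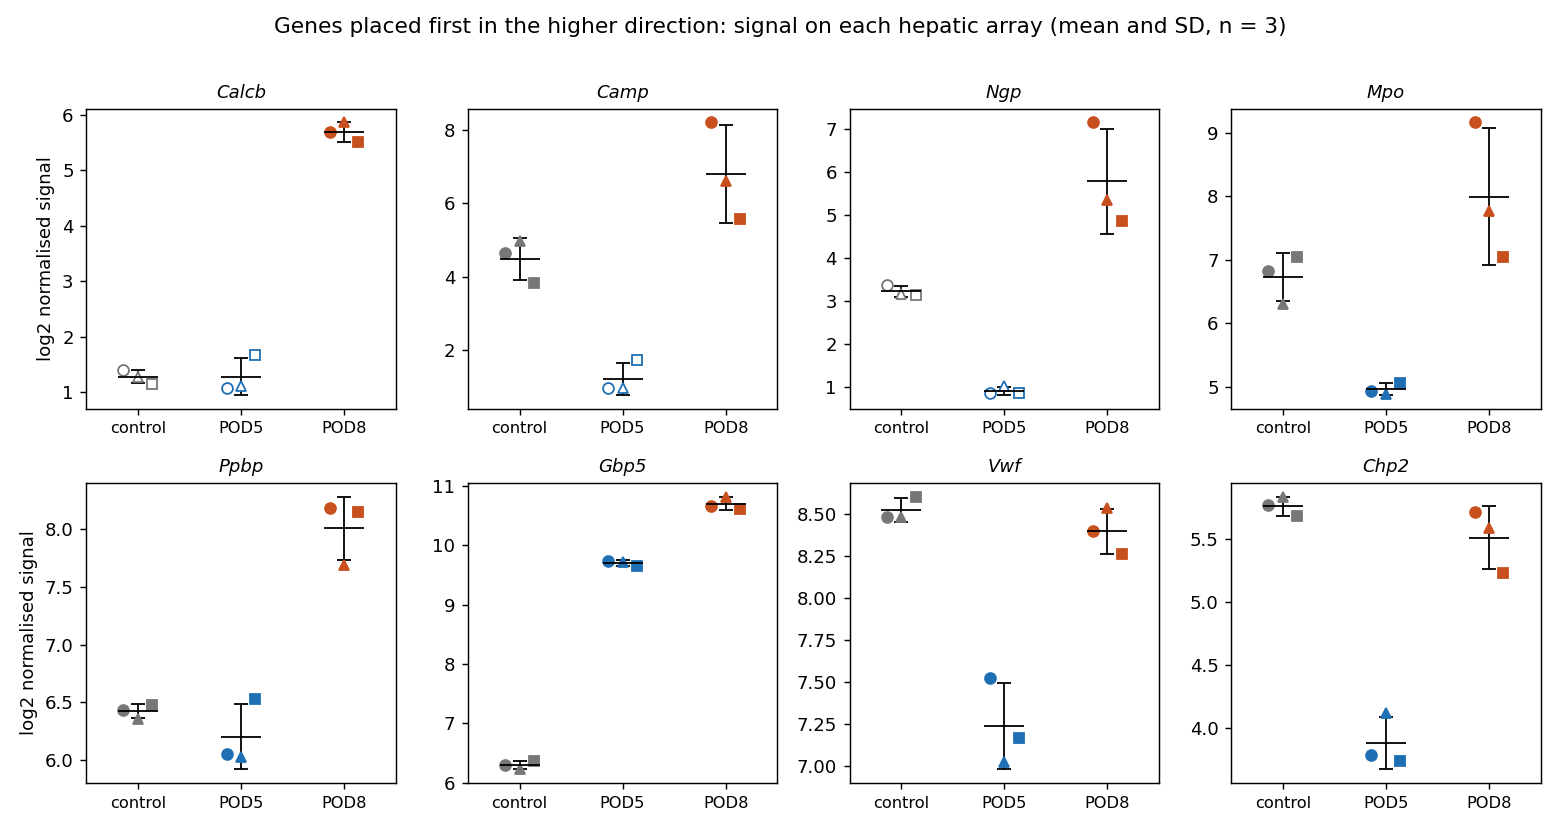
Log2 normalised signal (y axis) of 8 genes placed first in the higher direction on the control, POD5 and POD8 arrays, with circle, triangle and square for replicates 1, 2 and 3, bars for the mean and SD (n = 3), and open symbols where no array of the group was well above background. Calcb, Camp and Ngp passed the test, and in Camp, Ngp, Mpo, Vwf and Chp2 the POD5 arrays lay below the controls.

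The other genes placed first in the higher direction did not pass, although their time points did not overlap. Ppbp, the platelet basic protein CXCL7, had log2 signals of 6.05, 6.02 and 6.53 at POD5 and 8.19, 7.69 and 8.15 at POD8 (1.81 ± 0.21, adjusted p = 0.0641), and its controls, at 6.43, 6.36 and 6.48, lay among the POD5 values. Vwf, the von Willebrand factor of endothelium and platelets, was 7.53, 7.03 and 7.17 at POD5 and 8.39, 8.53 and 8.26 at POD8, beside controls of 8.48, 8.48 and 8.60. Chp2, a calcineurin B homologue, differed by 1.63 (adjusted p = 0.0641) and had the same shape as Vwf, low at POD5 and near the controls at POD8. Penk, the enkephalin precursor, differed by 2.05 (adjusted p = 0.143). Ccl1, a chemokine made by activated T cells, was not well above background at POD5 and was on all POD8 arrays, with 2.85, 2.67 and 3.30 against 5.04, 5.35 and 4.54. Strip2, a component of a phosphatase complex, differed by 1.72, and Gbp5 is described with the interferon genes.

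Genes of mitosis were lower in value at POD8, although none passed the test. All 25 tested members had a negative difference, 16 of them without overlap between the time points (over all named genes, 13.9% were lower without overlap) and 14 with an unadjusted p under 0.05 (5.85% of all named genes were lower at this level). The median was -0.81 against -0.02 over all named genes. Mki67, the Ki-67 antigen of cycling cells, had log2 signals of 10.46, 10.70 and 11.15 at POD5 and 9.64, 9.78 and 10.10 at POD8, against 7.68, 8.11 and 7.90 in the controls. Its time points did not overlap, and both lay above the controls. The difference was -0.93 ± 0.23 (adjusted p = 0.39). Ccnb1, cyclin B1, which drives entry into mitosis, had 7.12, 7.22 and 7.43 at POD5 and 6.57, 6.71 and 6.98 at POD8. Cdk1, its kinase partner, overlapped between the time points, with 8.64, 8.48 and 7.72 against 7.51, 7.72 and 8.22.

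The most negative mitotic members were Aurkb (-1.21), the kinase of the chromosomal passenger complex, Top2a (-1.14), the topoisomerase that untangles sister chromatids, Plk1 (-1.10), a kinase of the spindle poles, and Nusap1 (-1.08), a spindle protein. Bub1 and Nek2, kinases of the spindle checkpoint and of centrosome separation, were the nearest to 0 of the members, both at -0.22. Mitotic genes did not return to the control level by POD8, where 24 of the 25 were still called above the controls, the same number as at POD5. Within POD8 the third array was the highest in the mean over the list, and within POD5 the third array was. The median was -0.68 without the third POD5 array, -1.01 without the third POD8 array and -0.87 without either.

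**Figure D2:**
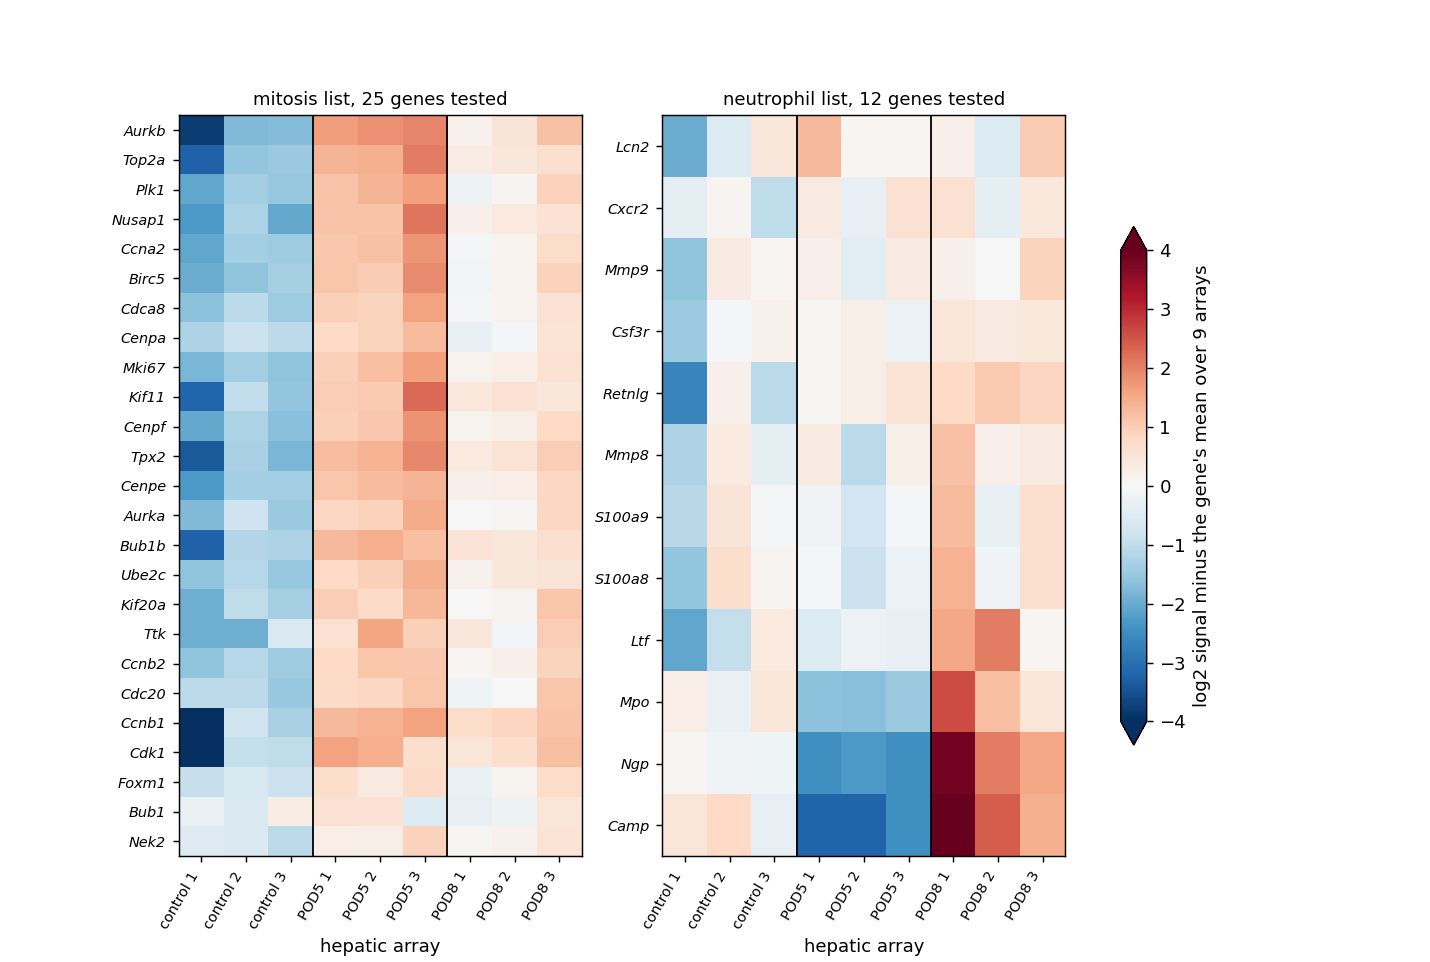
Log2 signal of each gene minus its mean over the 9 hepatic arrays (colour, from -4 to 4) for the 25 mitosis and 12 neutrophil genes tested (y axis), on the control, POD5 and POD8 arrays (x axis). The mitosis genes were lowest in the controls and highest at POD5, with a median of -0.81 from POD5 to POD8, and Camp, Ngp and Mpo formed the block that was low at POD5 and high at POD8.

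Mitotic genes are known to share the CCAAT box and the cell cycle homology region in their proximal promoters. The stretch shown holds both in Cdk1 and the CCAAT box alone in Ccnb1. They are printed here because the differences of the list's members had one sign. The sequences are from RefSeq (GRCm38.p6), the last 120 bases before the annotated start on the gene's strand, with capitals for CCAAT (or ATTGG, its other strand) and for TTTGAA.
Cdk1, chr10:69352913-69353032, minus strand: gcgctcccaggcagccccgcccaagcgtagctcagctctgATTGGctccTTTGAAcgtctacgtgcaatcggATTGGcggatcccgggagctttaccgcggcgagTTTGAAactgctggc
Ccnb1, chr13:100786487-100786606, minus strand: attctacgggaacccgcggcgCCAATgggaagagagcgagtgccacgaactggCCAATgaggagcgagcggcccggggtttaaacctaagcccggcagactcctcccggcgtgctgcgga

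In the window from 250 bases before to 50 after the start, on either strand, CCAAT was found in 18 of 20 mitosis promoters (90.0%) and in 41.1% of all 27025 promoters. TTTGAA was found in 14 of 20 (70.0%) and in 20.2% of all. Of the DNA replication promoters, 11 of 19 held CCAAT (57.9%) and 3 of 19 held TTTGAA (15.8%). These matches describe the letters of the window.

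DNA replication genes had a smaller difference in the same direction. Of 25 tested, 24 were negative, 11 were lower without overlap (13.9% of all named genes were), 0 were called, and the median was -0.49. Mcm2, a subunit of the replicative helicase, had log2 signals of 8.73, 8.84 and 8.99 at POD5 and 7.70, 7.86 and 8.68 at POD8, without overlap. Pcna, the sliding clamp, differed by -0.36, and Uhrf1, which maintains DNA methylation behind the fork, by -1.24. At POD5 17 of these genes were called above the controls (11.8% of all named genes were), and at POD8 11 were (10.2%). Genes of cell cycle entry and the p53 response had a median of 0.10 over 14 members, and 10 of them were within a 2-fold change. Cdkn1a, the p21 inhibitor, differed by 0.38 and Mdm2, the ligase that degrades p53, by -0.28, while Myc had 8.10, 8.51 and 9.81 at POD5 and 7.36, 7.63 and 7.56 at POD8. Myc did not overlap, and its value on the third POD5 array was the highest of the 6.

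**Figure D3:**
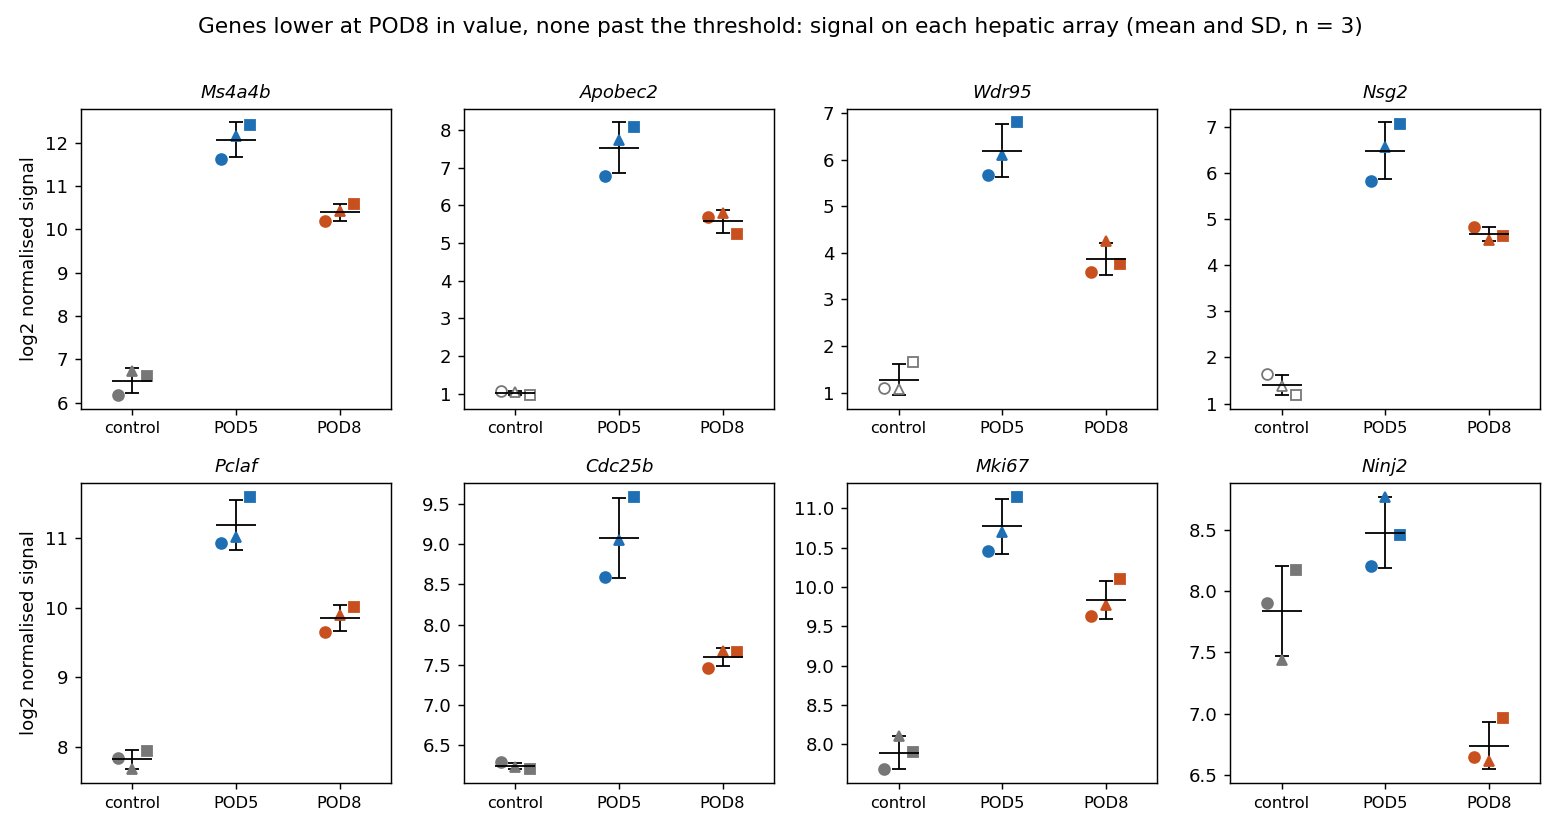
Log2 normalised signal (y axis) of 8 genes that were lower at POD8 in value on the control, POD5 and POD8 arrays, with circle, triangle and square for replicates 1, 2 and 3 and bars for the mean and SD (n = 3). In each gene the POD8 arrays lay below the POD5 arrays, and none passed the test.

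Outside the lists, the genes placed first in the lower direction included leukocyte and proliferation genes, and none passed. Ms4a4b, a membrane protein of T cells, had log2 signals of 11.62, 12.16 and 12.42 at POD5 and 10.19, 10.42 and 10.57 at POD8, with controls of 6.18, 6.73 and 6.62 (-1.67 ± 0.25, adjusted p = 0.143). Both time points lay above the controls. Pclaf, a PCNA-binding factor of dividing cells, had 10.93, 11.02 and 11.59 at POD5 and 9.65, 9.89 and 10.00 at POD8, and Cdc25b, a phosphatase that activates cyclin-dependent kinases, had 8.59, 9.05 and 9.60 against 7.46, 7.66 and 7.65. Apobec2, a member of the cytidine deaminase family, had 6.78, 7.75 and 8.08 at POD5 and 5.70, 5.80 and 5.24 at POD8. Ninj2, an adhesion molecule, had POD8 arrays (6.64, 6.61 and 6.96) below the controls (7.90, 7.44 and 8.17). Wdr95 differed by -2.32 (adjusted p = 0.119) and Nsg2, a neuronal vesicle protein, by -1.81. Tmprss13, a membrane serine protease, and Cav3, a caveolin of muscle, were well above background on all POD5 arrays and on no POD8 array. Against the floor of the POD8 arrays they were 1.68-fold and 1.63-fold lower in value. The remaining genes placed here were H1f5 (-1.20), a linker histone, and the olfactory receptors Olfr503 (-1.27) and Olfr1280 (-1.15).

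T cell transcripts were present at nearly the same level at both time points for Cd8a, Cd3e and Cd3g and lower in value at POD8 for several signalling and costimulatory genes. Cd8a, the coreceptor of cytotoxic T cells, had log2 signals of 10.14, 10.61 and 10.79 at POD5 and 10.47, 10.68 and 10.44 at POD8, and was not well above background on any control. The time points overlapped, and the difference of 0.02 had a 95% interval of -0.44 to 0.48. Cd3e and Cd3g, chains of the receptor complex, differed by -0.02 and -0.20, and Cd4, the helper coreceptor, by -0.24. Thy1, a surface glycoprotein of T cells, had 11.25, 11.72 and 12.43 at POD5 and 10.51, 10.76 and 10.61 at POD8 without overlap (-1.17 ± 0.30, adjusted p = 0.399). Cd28, the costimulatory receptor, differed by -1.25, Lat, the adaptor of the receptor signal, by -1.06, Skap1, an adaptor of integrin activation, by -0.99, and the adhesion receptor Cd2 by -0.75. Of 17 tested T cell genes 15 were negative, 6 were lower without overlap (13.9% of all named genes were), 0 were called, and the median was -0.55. It was -0.38 without the third POD5 array and -0.33 without the third array of either time point. At each time point 14 of the 17 were called above the controls.

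Cytotoxic effector genes were at a high level at both time points. All 16 tested were called above the controls at POD5 and at POD8, 8 were positive and 8 negative between the time points, and the median was 0.07, a value whose sign changed in 5 of 28 settings. Gzmb, granzyme B, had log2 signals of 12.30, 12.55 and 12.51 at POD5 and 11.87, 12.25 and 12.12 at POD8, and Prf1, perforin, differed by -0.01. Ifng, interferon gamma, had 9.12, 9.38 and 10.25 at POD5 and 9.87, 10.16 and 9.92 at POD8, which overlap. The members differed among themselves. Gzma, granzyme A, and Ccl5, a chemokine of effector T cells, were higher at POD8 in value without overlap (0.70 and 0.86), as was Tnf (0.67), the tumour necrosis factor. Gzmc, granzyme C, had 2.66, 2.85 and 4.36 at POD5 and 4.98, 6.17 and 5.39 at POD8 and was well above background on all POD8 arrays and 1 POD5 array (2.22 ± 0.45, adjusted p = 0.272). Gzmk, granzyme K, differed by -1.22, and the transcription factors of effector fate Eomes and Tbx21 by -1.18 and -0.86.

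The inhibitory receptors of activated T cells and their ligands went both ways in value. The median of 13 checkpoint genes was 0.13, with 9 positive and 4 negative, 4 were within a 2-fold change, and 12 were called above the controls at POD5. Pdcd1 (PD-1) differed by -0.11, Lag3 by 0.00 and Havcr2 (TIM-3) by 0.09, while Ctla4, which competes with CD28, differed by -0.73. Of the ligands, Cd274 (PD-L1) differed by 0.51 and Pdcd1lg2 (PD-L2) had 3.92, 4.71 and 5.44 at POD5 and 6.35, 6.69 and 5.57 at POD8 without overlap. Regulatory T cell genes had a median of 0.21 over 9 members, with Il10, the anti-inflammatory cytokine, at 0.21, and Foxp3 and Il2ra were not tested. Natural killer cell genes had a median of -0.13 over 9 members, which was 0.24 without the third POD5 array and 0.05 without the third POD8 array, so it has no settled sign. The receptors Klrb1c and Klrd1 differed by 0.33 and -0.67.

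Interferon gamma response genes were mostly slightly higher in value at POD8, and 7 of 20 were within a 2-fold change (66.2% of all named genes were). All 20 tested were called above the controls at both time points, 16 were positive between POD5 and POD8, 12 were higher without overlap (9.96% of all named genes were) and 0 were called, with a median of 0.41. Gbp5, a guanylate-binding protein of host defence, had log2 signals of 9.74, 9.73 and 9.65 at POD5 and 10.67, 10.82 and 10.62 at POD8 (0.998 ± 0.16, adjusted p = 0.144). Ciita, the master coactivator of MHC class II genes, had 9.02, 8.89 and 8.92 at POD5 and 9.93, 9.96 and 9.80 at POD8 (0.96 ± 0.21, adjusted p = 0.322). In both genes the groups were separate and the arrays of a time point lay close together. Irf1, a transcription factor of the response, differed by 0.42, Batf2 by 0.80, and the immunity-related GTPases Tgtp1, Irgm2 and Irgm1 by 0.83, 0.57 and 0.28. Cxcl9, the chemokine that draws CXCR3-bearing T cells, went the other way in value, with 14.71, 14.70 and 15.48 at POD5 and 14.38, 14.52 and 14.14 at POD8, and Cxcl10 differed by 0.40. Ubd, a ubiquitin-like modifier, differed by -1.07 without overlap. The median was 0.40 without the third POD5 array and 0.44 without the third POD8 array.

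The promoters of Gbp5 and Irgm1 show the elements of this response, the gamma-activated site TTCNNNGAA and the core of the interferon-stimulated response element (ISRE), GAAA repeated after any 2 bases. Capitals mark the match in each (in Irgm1 a pair of overlapping matches), with the same source and window as above.
Gbp5, chr3:142496814-142496933, plus strand: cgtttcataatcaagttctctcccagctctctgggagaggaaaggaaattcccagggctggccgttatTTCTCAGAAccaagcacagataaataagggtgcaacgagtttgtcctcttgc
Irgm1, chr11:48871421-48871540, minus strand: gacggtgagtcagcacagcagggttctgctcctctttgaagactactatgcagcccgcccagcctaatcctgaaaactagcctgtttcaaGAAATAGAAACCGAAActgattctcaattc

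TTCNNNGAA was found in 6 of 15 promoters of the list (40%) and in 9.55% of all promoters, and in 0 of 20 mitosis promoters. The ISRE core was found in 11 of 15 (73.3%), in 3.99% of all and in 1 of 20 mitosis promoters (5.0%).

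Antigen presentation genes are given by MHC class, and a difference between the classes was not tested. Of the MHC class II list 9 genes were tested, all positive, with a median of 0.45 and 0 called. Of them 6 were higher without overlap (9.96% of all named genes were). Of the 9 genes, 7 were well above background on all 6 allografts, and their median was 0.42. The others entered the test through POD8. Cd74, the invariant chain, had log2 signals of 14.64, 14.55 and 14.36 at POD5 and 14.93, 15.15 and 14.68 at POD8. The chains H2-Aa and H2-Ab1 differed by 0.67 and 0.45, and H2-DMb2, which helps load peptide, by 1.003. The class II list had 8 of 9 genes called above the controls at POD5 (11.8% of all named genes were). MHC class I genes had a median of -0.22 over 13 members, with 11 within a 2-fold change. B2m, the light chain, differed by 0.03, H2-K1, a heavy chain, by -0.36, and Tap1, the peptide transporter, by 0.48. Psmb9, a subunit of the immunoproteasome, had 14.51, 14.27 and 14.91 at POD5 and 14.46, 14.66 and 14.52 at POD8 against 11.47, 11.71 and 11.87 in the controls, so it was raised and level. MHC genes differ between the strains, and how well a probe matches each haplotype was not tested. Genes of the antiviral interferon response had a median of 0.25 over 20 members, with the ubiquitin-like Isg15 at 0.39, Ifit1, an RNA-binding effector, within 0.01 of 0, and Oas2, a sensor of double-stranded RNA, at 0.70.

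**Figure D4:**
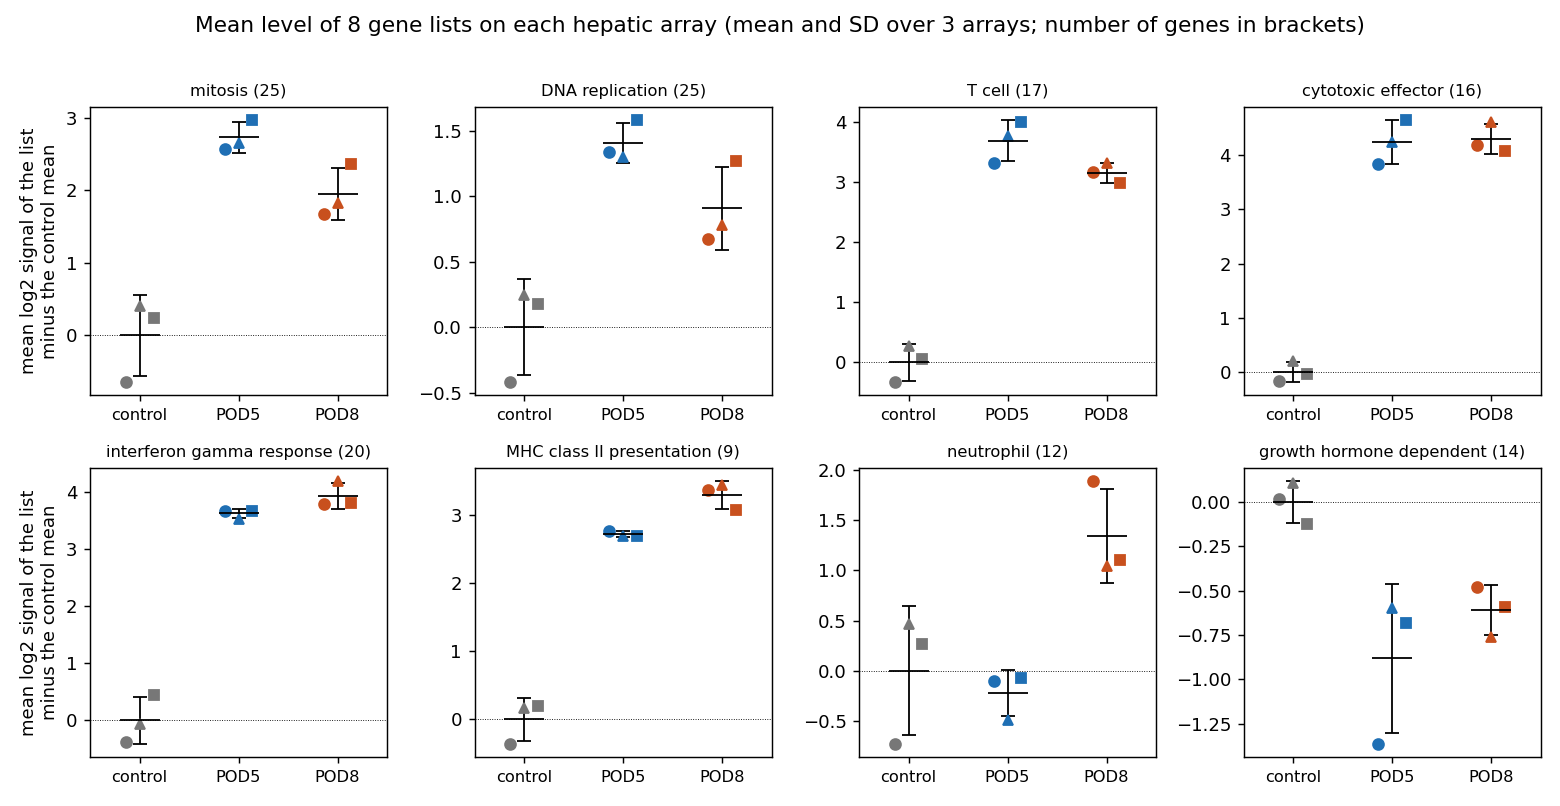
Mean log2 signal of the tested members of 8 gene lists on each hepatic array minus the mean of the 3 controls (y axis), with circle, triangle and square for replicates 1, 2 and 3 and bars for the mean and SD (n = 3). The mitosis and T cell lists lay lower at POD8 than at POD5, the MHC class II and neutrophil lists higher, and the cytotoxic list overlapped. The neutrophil list includes Camp and Ngp, and the class II list some genes, that entered the test only through POD8. Values of genes not well above background in a group are included as measured.

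Genes of antibody-producing cells went both ways in value, and none was called. The B cell list had a median of 0.18 over 12 members, and Ms4a1 (CD20) and Cd79a, surface proteins of B cells, differed by -0.14 and -0.17. Cd22, an inhibitory B cell lectin, had log2 signals of 5.44, 6.17 and 5.32 at POD5 and 6.95, 6.84 and 6.43 at POD8 without overlap. Jchain, the joining chain of polymeric immunoglobulin, had 5.25, 6.11 and 6.86 at POD5 and 8.18, 7.90 and 7.34 at POD8, against 6.66, 5.40 and 5.76 in the controls (1.73 ± 0.45, adjusted p = 0.399). The groups were separate, and POD5 overlapped the controls. Mzb1, a chaperone of immunoglobulin, differed by 0.69 and Irf4, a transcription factor of plasma cells and activated T cells, by -0.77, while Derl3, which helps degrade misfolded proteins in secretory cells, differed by 2.29, and the plasma cell list had a median of 0.21 over 10 members.

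Macrophage genes are given as resident and general lists, and a difference between the lists was not tested. The Kupffer cell list, the resident macrophages of liver, had 10 of 11 members positive and a median of 0.42, which was 0.18 without the third array of either time point. Clec4f, a lectin specific to these cells, had log2 signals of 12.25, 12.14 and 11.80 at POD5 and 12.90, 12.60 and 12.69 at POD8 without overlap. Vsig4, a complement receptor, differed by 1.35, Folr2, a folate receptor, by 0.92, and Timd4, a receptor for dying cells, by -0.05. Without the third POD5 array Clec4f differed by 0.54, Vsig4 by 0.68 and Timd4 by 0.07. Genes of monocytes and macrophages in general had a median of -0.03 over 15 members, with the integrin Itgam at -0.45, the adhesion receptor Adgre1 at 0.45 and Csf1r, the receptor for their growth factor, at 0.83. Dendritic cell genes had a median of 0.31 over 8 members, with Xcr1, a chemokine receptor, at -0.15 and Flt3, a growth factor receptor, at 0.13.

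Chemokines were mixed. The median of 18 inflammatory chemokine genes was 0.07. Ccl2, which draws monocytes, differed by -0.31, and Ccl3 and Ccl4, chemokines of macrophages and T cells, by 0.77 and 0.67. Ccl8, a monocyte chemokine, had log2 signals of 8.98, 10.05 and 9.36 at POD5 and 11.04, 11.40 and 10.88 at POD8, and Cxcl1, a neutrophil chemokine, had 8.77, 8.41 and 8.03 against 10.62, 9.45 and 10.07. Both were separate between the time points. Cxcl1 was called lower than the controls at POD5 (log2 difference -2.40, limma, adjusted p = 0.016). Camp and Ngp, not well above background at POD5, were too. Cxcr3, the receptor for CXCL9 on T cells, differed by -1.004, with 9.21, 9.75 and 10.04 against 8.77, 8.84 and 8.39. The lymphoid chemokines Cxcl13, Ccl19 and Ccl21a, which organise lymphoid tissue, differed by -0.15, -0.92 and -0.25, and the median of their list, -0.25, was 0.09 without the third POD5 array. In the eosinophil list, median 0.20 over 7 members, Prg2, the major basic protein of granules, was not well above background on any POD5 array and was on all POD8 arrays. It was 2.62-fold higher in value against the floor and did not pass (adjusted p = 0.182). Siglecf, a surface lectin of eosinophils, differed by 0.42.

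Among the hepatocyte programs, plasma protein, transcription factor and respiratory genes stayed near level between the time points, and acute phase genes went both ways. Plasma protein genes had a median of -0.06 over 17 members, 14 of them within a 2-fold change (66.2% of all named genes were), with albumin (Alb), transthyretin (Ttr) and apolipoprotein A1 (Apoa1) at -0.10, -0.13 and -0.14. Acute phase genes had a median of 0.00 over 20 members, but 6 of them were within a 2-fold change and 10 were positive and 10 negative, with the serum amyloids Saa1 and Saa2 at -0.08 and -0.03 and haptoglobin (Hp) at -0.01. Il6, the cytokine that drives them, was lower in value, with log2 signals of 6.35, 6.09 and 6.56 at POD5 and 4.76, 4.73 and 5.64 at POD8. Hepatocyte transcription factor genes had a median of -0.02 over 16 members, 12 within a 2-fold change. Hnf4a and Cebpa, regulators of hepatocyte identity, were within 0.01 of 0, and Nr1h4, the bile acid receptor, differed by -0.08. Genes of oxidative phosphorylation had a median of 0.17 over 16 members, with 14 within a 2-fold change, and those of complement and coagulation a median of 0.18 over 23, with C3 and Cfb of complement at -0.04 and -0.07 and prothrombin (F2) at 0.18.

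Among the genes that depend on growth hormone, several lay nearer to the control level at POD8 in value. The list had 10 of 14 members positive and a median of 0.53. Of its genes 7 were called below the controls at POD5 (7% of all named genes were) and 1 at POD8 (4.85%). Cyp4a12a, a male-specific fatty acid hydroxylase, had log2 signals of 11.001, 11.54 and 10.504 at POD5 and 12.21, 12.81 and 12.71 at POD8, against 12.68, 12.60 and 12.47 in the controls (1.56 ± 0.28, adjusted p = 0.19). Igf1, the insulin-like growth factor, had 13.51, 13.82 and 13.49 at POD5 and 14.25, 14.31 and 14.38 at POD8, against 14.51, 14.64 and 14.75. In both the time points were separate, and the POD8 arrays of Cyp4a12a overlapped the controls. Ghr, the growth hormone receptor, differed by 0.97, Hsd3b5, a male-specific steroid enzyme, by 1.60 and Elovl3, a fatty acid elongase, by 0.37. Cish, a feedback inhibitor that growth hormone and other cytokines induce, went the other way, with 10.30, 10.64 and 10.66 at POD5 and 8.26, 7.85 and 8.92 at POD8, and Socs2, another such inhibitor, differed by -0.42. The median was 0.29 without the first POD5 array, 0.35 without the second and 0.59 without the third, and 0.27, 0.31 and 0.53 without POD8 replicates 1, 2 and 3 in turn. The mean over the list was low on the first POD5 array (10.85), while the other POD5 arrays (11.61 and 11.53) lay among the POD8 arrays (11.73, 11.45 and 11.62).

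Among the hepatocyte lists, the widest range of differences was that of the cytochrome P450 genes (-2.61 to 2.01). Cytochrome P450 genes had a median of 0.26 over 23 members, 10 within a 2-fold change. Cyp7a1, the rate-limiting enzyme of bile acid synthesis, had log2 signals of 10.86, 10.11 and 9.09 at POD5 and 7.27, 5.88 and 9.09 at POD8 (-2.61 ± 0.86). The third arrays of both time points had almost the same Cyp7a1 level. Cyp26a1, which breaks down retinoic acid, had 11.39, 11.87 and 11.53 at POD5 and 12.84, 14.54 and 13.46 at POD8, against 9.62, 9.20 and 9.78 in the controls (2.01 ± 0.39, adjusted p = 0.251), so its 3 groups did not overlap. Cyp2e1, which oxidises ethanol, differed by 0.30, Cyp3a11, the main drug-metabolising form, by -0.07 and Cyp2a5, a coumarin hydroxylase, by -1.05. Conjugation genes had a median of -0.20 over 17 members. Gsta1, a glutathione transferase, had 15.30, 14.77 and 14.35 at POD5 and 13.58, 14.10 and 14.27 at POD8, and Gsta2 and Gstm2 of the same enzyme class differed by -1.08 and -1.15, while Ugt1a1, which conjugates bilirubin, differed by 1.39 and the sulfotransferases Sult1a1 and Sult1e1 by -0.47 and -1.55. Hepatobiliary transporters had a median of -0.26 over 14 members, with the bile salt export pump Abcb11 at 0.01, the bile acid uptake carrier Slc10a1 at 0.95 and the conjugate pump Abcc2 at -0.39. Without the third POD5 array Abcb11 was at -0.11, Slc10a1 at 0.07, Abcc2 at -0.59 and Ugt1a1 at 0.38.

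Fuel metabolism lists had small medians with members on both sides. Over all named genes 66.2% were within a 2-fold change, and the fatty acid oxidation and the gluconeogenesis and glycolysis counts lay near that share. Fatty acid oxidation genes had a median of 0.14 over 19 members, 12 within a 2-fold change. Of them 8 were called below the controls at POD5 (7% of all named genes were). Cpt1a, which admits fatty acids to mitochondria, differed by 0.57 and Fgf21, a fasting hormone of hepatocytes, by -2.49. Urea cycle and amino acid genes had a median of 0.25 over 19, 10 within a 2-fold change, with the urea cycle enzymes Otc and Ass1 at 0.53 and 0.40. That median was within 0.01 of 0 without the third POD5 array and 0.07 without the third array of either time point. Gluconeogenesis and glycolysis genes had a median of 0.05 over 18, 11 within a 2-fold change, with G6pc and Fbp1, enzymes of glucose output, at 0.56 and 0.38. Sterol and fatty acid synthesis genes had a median of -0.04 over 22, also 11 within a 2-fold change, with Sqle, an enzyme of cholesterol synthesis, at -0.03.

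**Figure D5:**
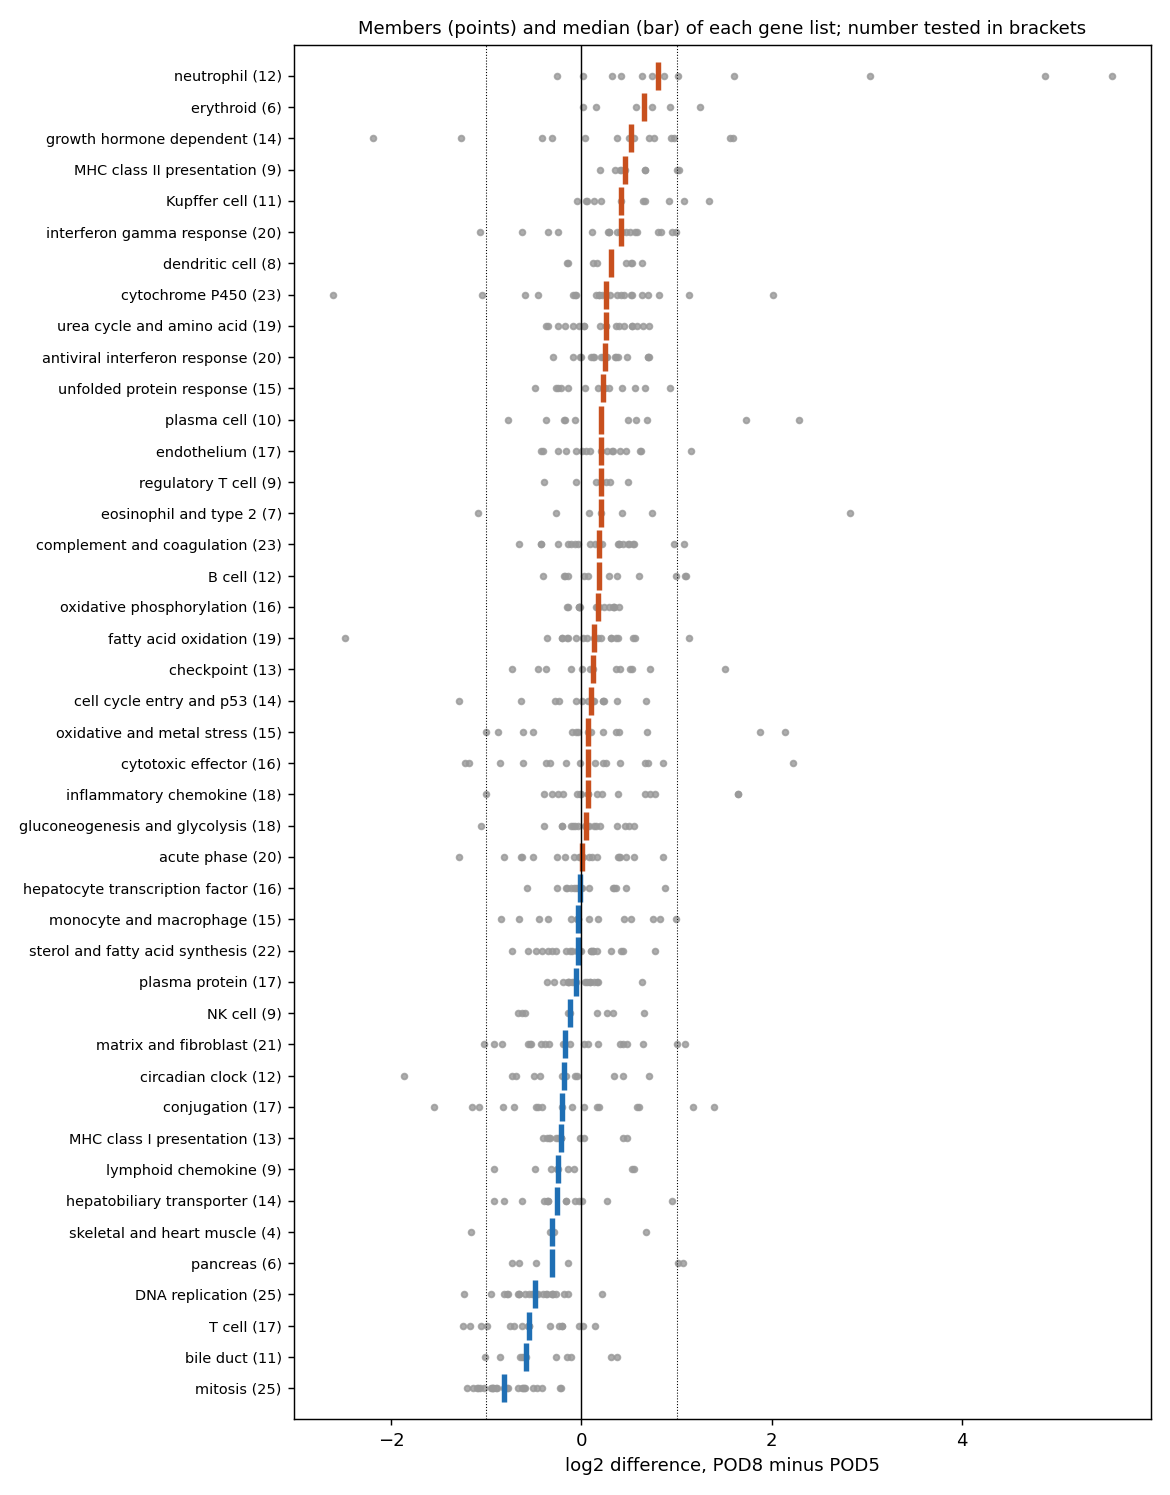
Log2 difference from POD5 to POD8 (x axis) of the tested members of 43 gene lists (points, y axis, number tested in brackets) with the median as a bar, orange where positive and blue where negative, and dotted lines at a 2-fold change either way. Mitosis had the lowest median (-0.81) and neutrophil the highest (0.81), while the medians of the plasma protein, acute phase and hepatocyte transcription factor lists lay near 0.

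Among the other compartments of the graft, bile duct genes had a median of -0.58 over 11 members, with the keratins Krt19 and Krt7 and the adhesion molecule Epcam at -0.58, -0.62 and -0.61, and none of the members was without overlap. That median was -0.13 without the first POD5 array, -0.34 without the first POD8 array and -0.29 without the third POD8 array. Matrix and fibroblast genes had a median of -0.17 over 21, with the collagens Col1a1 and Col3a1 at -0.12 and -0.54 and smooth muscle actin (Acta2) at 0.03. Endothelial genes had a median of 0.21 over 17, with the adhesion molecules Pecam1 and Vcam1 at 0.32 and 0.62 and the sinusoidal scavenger receptor Stab2 at 0.26. Genes of the unfolded protein response had a median of 0.23 over 15, with the chaperone Hspa5, the death-linked factor Ddit3 and the cochaperone Dnajb9 at 0.18, 0.67 and 0.25. Oxidative and metal stress genes had a median of 0.07 over 15, with haem oxygenase (Hmox1) and the metallothioneins Mt1 and Mt2 at 0.07, 0.69 and 0.39. The heat shock gene Hspa1a had log2 signals of 8.48, 6.73 and 9.12 at POD5 and 10.90, 9.94 and 9.14 at POD8, and Hspa1b, its close relative, differed by 2.14.

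Of 6 tested genes of red cells, 3 were called below the controls at POD5 (7% of all named genes were) and 2 at POD8 (4.85%). Between the time points all 6 were positive, with a median of 0.66, which was 0.37 with 4 of 6 positive without the first POD5 array and 1.11 without the third. Alas2, the erythroid enzyme of haem synthesis, had log2 signals of 10.62, 11.02 and 11.60 at POD5 and 12.41, 12.50 and 12.08 at POD8, against 13.04, 13.01 and 12.61 in the controls, without overlap between the groups. The globin Hba-a1 differed by 0.93. Circadian clock genes, read as a sign of the hour of sampling, had a median of -0.18 over 12, which was 0.16 without the first POD8 array and -0.75 without the third, and no member without overlap, with Arntl, Dbp and Nr1d1 at 0.44, -0.50 and 0.72. Of 10 pancreas genes 6 were tested, with the digestive enzymes Prss2, Cela1 and Ctrb1 at -0.14, 1.01 and -0.73. Of 10 muscle genes 4 were tested, with a median of -0.31. The part of red cells and of neighbouring pancreas in the other results was not tested.

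A last group is defined by an interval within a 2-fold change between the time points after a large measured rise. Of the listed genes whose measured POD5 level was over 2 log2 units above the controls, the 10 with the narrowest interval between the time points included Siglecf, Klrb1f, H2-DMb1, Itgax, Pfkp, Cd8a, Ly6c2, Psmb9 and Irgm1. Their differences from POD5 to POD8 lay between -0.05 (Ly6c2, a monocyte and T cell surface protein) and 0.52 (Itgax, the integrin CD11c). Klrb1f, a lectin-like receptor of natural killer cells, differed by 0.27, H2-DMb1, a class II peptide loader, by 0.42 and Pfkp, a glycolytic kinase, by 0.14. For each of the 10 the 95% interval lay within a 2-fold change either way, as the rule that chose them required. The rule does not show that a gene was unchanged. The differences of H2-DMb1, Itgax, Siglecf and Irgm1 were positive in all 28 settings.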

How the data were processed

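RNA of 9 hepatic samples (3 control, 3 POD5 and 3 POD8) was measured on 1-colour Agilent arrays. The deposited intensity per spot is the scanner software's processed signal (Feature Extraction 10.5.1.1), which is background-subtracted but not normalised between arrays. The study's text speaks of 3 mice per time point, and the labels number the replicates without naming animals, so p-values measure the spread between these samples. Spots with outlier marks (47 to 92 per array) were left out, and none was saturated. Signals of the 9 arrays were log2 transformed, averaged by probe and quantile normalised. The study's methods also used quantile normalisation, but on natural logs. Probes that the scanner software marked as well above background throughout POD5 or throughout POD8 were fitted with limma 3.58.1 (R 4.3.3) in 1 model of 9 arrays, with Benjamini-Hochberg adjustment at 0.05 over all tested probes. Ranges given after ± are standard errors. "Without overlap" means that every array of one time point lay above every array of the other. Folds against the floor set the bright group against the lowest signal well above background on each dim array. With normexp the differences of Calcb, Camp and Ngp were smaller, so these folds are not minima. The array number limits the precision. The smallest exact permutation p for 3 against 3 is 0.1. Probes were named through RefSeq accessions (26690 of 41174, 64.8%).

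The 43 gene lists (704 genes, 631 tested) and the comparison were chosen with earlier results of these data known. Genes were named by rule: the 12 named genes with the largest difference in each direction among those called, with free places going to the smallest unadjusted p without overlap, the first 3 genes of each list with up to 8 called members, and the 10 listed genes with the narrowest interval within a 2-fold change. Some genes that the rule names are not reported here. Alternatives covered normalisation, background correction, filters, the variance model, blocks, left-out arrays and other tests. The script was checked on simulated data.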

Additional observations from a re-analysis of the deposited data

How the results depend on the processing

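The 4 probes called depended on the processing, and the causes were not tested. Scaling to the 75th percentile gave 7, normexp 0 (2264 at an unadjusted p under 0.05), probes above background on all 6 allografts 1, and limma with a Bonferroni adjustment 1. The methods' t-test gave 1 with either adjustment and 3293 unadjusted, and the study's SFC test with a Bonferroni adjustment gave 147 (52 higher, 95 lower). With the replicate number as a block 1 probe was called. Deviations of same-numbered arrays correlated at -0.11 to 0.00. With 3 arrays a group this cannot decide whether the numbers pair the grafts. Slide as a fixed block gave no value, and as a random block 1. Leaving out 1 array gave 1 (control 2, control 3 or POD5 2) to 14 (control 1), with 7 without POD5 3. Chosen after seeing the data, leaving out POD5 3 and POD8 3 gave 2, leaving out 1 array with the allografts alone 0 (POD5 2 or POD8 3) to 29 (POD5 3), and array weights 4696 (2030 higher, 2666 lower). The weights were lowest for control 1 (0.132), then POD5 3 (0.196), control 3 (0.32) and POD8 3 (0.626). Probes at an unadjusted p under 0.05 (2357) numbered 3895 with the allografts normalised alone, 3915 with them fitted alone, 1554 with the random block, 8816 with array weights, 976 (without POD8 1) to 3641 (without control 1) with 1 array left out (1105 without POD8 2), and up to 5100 with the allografts alone (4024 without POD5 2, 4620 without POD8 3). Probes within a 2-fold change numbered 22681 with normexp and 22890 without the filter, and 406 listed genes were called against the controls at POD8 with array weights. Of list medians under each alternative 1147 stayed within the spread between arrays and 57 moved. The sign was the same in all 28 settings for 25 lists. It changed in 13 settings for monocyte and macrophage, 11 for NK cell, 10 for hepatocyte transcription factor, 6 for plasma protein and for acute phase, 5 for cytotoxic effector, 4 for lymphoid chemokine and 3 or fewer for the other 11 lists, so none of these has a settled direction. Of the 27 settings that gave them a value, Calcb was called in 23, Ngp in 8 and Camp in 7. Medians over 28 settings ranged from -1.01 to -0.62 for mitosis, -0.78 to -0.29 for T cell, 0.34 to 0.52 for interferon gamma response, 0.56 to 1.06 for neutrophil and 0.27 to 0.61 for growth hormone dependent genes. Spots near background limit the folds of Calcb, Camp and Ngp, whose log2 differences with normexp were 0.83, 1.53 and 1.07.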
